A study of Mus musculus with 31 samples.

Results

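The 7 cadherin genes Cdh1, Cdh2, Cdh3, Cdh4, Cdh6, Cdh11 and Cdh13 were followed while mouse embryonic fibroblasts were driven towards pluripotency. They and the gene lists below were chosen by name, with earlier results of these data known. Counts of called members and list genes beside the share of all genes are therefore descriptions. Each of the 7 had exactly 1 row that named it alone, among 19938 genes measured in the same way. Signals are log2 values of Affymetrix whole-transcript arrays, so a difference of 1 is a doubling, and levels were compared only within a gene. One arm received the retroviral factors Oct4, Sox2, Klf4 and c-Myc (abbreviated 4F), another received Oct4, Sox2 and Klf4 alone (abbreviated 3F), a GFP virus was the control, and uninfected fibroblasts served as day 0. The 31 arrays comprised 2 of day 0, 16 of 4F cells (2 each on days 1, 2, 3, 4, 5, 6 and 8, and 1 each on days 10 and 12), 9 of GFP cells (2 each on days 1, 3, 5 and 8, and 1 on day 12) and 4 of 3F cells (1 each on days 3, 5, 8 and 12). All cells were grown in DMEM with foetal bovine serum. The labels name no strain, embryonic age or sorting of infected cells, so each array reports on whole cultures. Where 2 values of a day are given, that of replicate 1 comes first.

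Cadherins are calcium-dependent adhesion proteins whose extracellular repeats bind cadherins on the neighbouring cell, while the cytoplasmic tail holds p120 and beta-catenin and, through alpha-catenin, the actin cytoskeleton. Epithelia are held together mainly by E-cadherin and many mesenchymal and neural cells by N-cadherin. The exchange of one for the other, the cadherin switch, accompanies transitions between epithelial and mesenchymal states, and pluripotent stem cells carry E-cadherin. Cdh1 (E-cadherin), Cdh2 (N-cadherin), Cdh3 (P-cadherin) and Cdh4 (R-cadherin) are type I classical cadherins. Cdh6 (K-cadherin) and Cdh11 (OB-cadherin) are type II. Cdh13 (T-cadherin) is held in the membrane by a lipid anchor and lacks the catenin-binding tail, so it is not a classical cadherin in the strict sense.

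The labelled cell type was checked against fibroblast markers. On day 0 Col1a1, a fibrillar collagen, stood at 12.58 to 12.62 and the intermediate filament gene Vim at 13.24 to 13.29, while the proteoglycan gene Lum was at 5.72 to 5.82. Oct4 (Pou5f1) stood at 5.22 to 5.65 on the day 0 and GFP arrays and at 6.05 to 10.2 in 4F and 3F cells, and Sox2 was at 5.31 to 5.98 and at 5.74 to 9.48 in the same arrays. Klf4, although delivered, was lower on every 4F array (6.65 to 7.61) than on every GFP array (7.67 to 8.15), and it was at 7.55 to 8.49 in 3F cells. Myc was at 6.37 to 8.5 in 4F, 7.95 to 9.37 in 3F and 6.58 to 9.72 in GFP cells. Neither row shows the delivered gene as higher, so the presence of c-Myc in 4F and its absence in 3F rest on the labels. The input for labelling was 120 ng of total RNA in replicate 1 and 300 ng for the remaining 19 arrays. Replicate 2 was above replicate 1 in 11 of 12 groups for Cdh11 and for Cdh13 and in 10 of 12 for Cdh2. Fits with the replicate number as a block are therefore given wherever they change a call.

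The first question was how the 4 factors had changed the cadherins relative to GFP virus on the same day. On day 8 Cdh11, Cdh2 and Cdh3 were lower in 4F cells, by 9.45-fold, 2.81-fold and 3.99-fold, and Cdh1 was 2.56-fold higher, while Cdh4, Cdh6 and Cdh13 did not pass the test. The members did not cross the threshold together. Cdh3 was lower and Cdh6 higher on day 1, Cdh11 was lower from day 3, Cdh2 from day 5, and Cdh1 was called on day 8 only among the 4 days tested. The test takes 1 spread per gene over all groups. For Cdh1 this was a residual SD of 0.38, while its 2 arrays had an SD of 0.05 on day 0 and 1.08 on 4F day 8. The day on which Cdh1 was called therefore depends on this shared spread. In limma, with 2 arrays per group and p-values adjusted over all genes, the number of members called at an adjusted p under 0.05 was 2 of 7 on day 1, 3 on day 3, 3 on day 5 and 4 on day 8. Over all genes the share called was 1.81%, 11.9%, 21.4% and 27.6% on these days, and with the replicate block it was 4.63% on day 1 and 18.8% on day 3. In the mean over the 4 days 5 members were called, against 37.4% of all genes. The median difference of the 7 members on day 8 was -0.32, and that of all genes was -0.03.

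**Figure D1:**
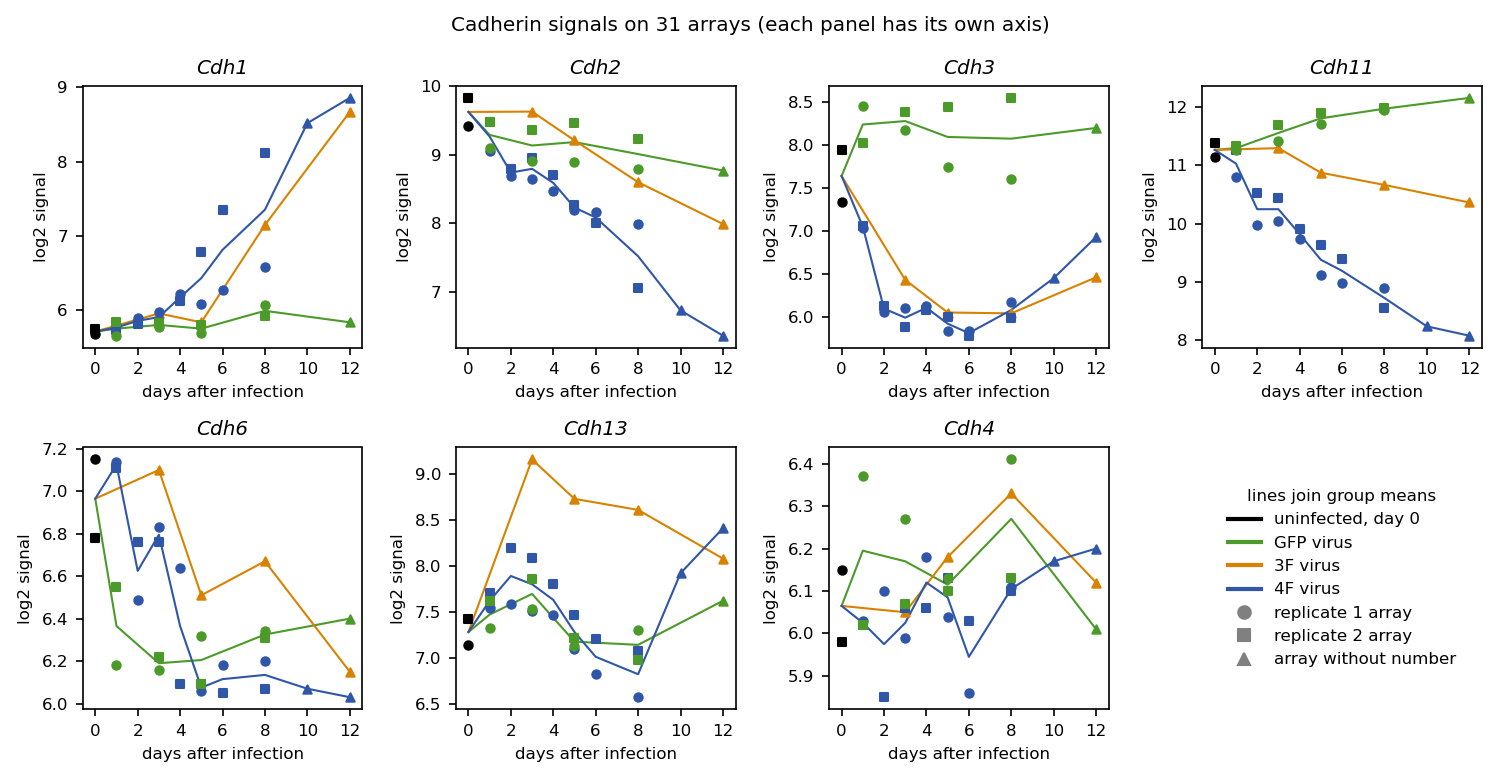
Log2 signal (vertical axis, its own range in each panel) of the 7 cadherins against days after infection on 31 arrays. Points are single arrays and lines join group means: Cdh1 reaches 8.86 and Cdh2 and Cdh11 fall to 6.36 and 8.08 on the 4F day 12 array, while Cdh4 stays between 5.85 and 6.41 in every arm.

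Cdh1 (probe set 10575052) encodes the main adhesion protein of epithelial junctions. It stood at 5.68 and 5.75 on day 0, and in GFP cells at 5.66 and 5.85 on day 1, 5.78 and 5.83 on day 3, 5.7 and 5.81 on day 5, 6.07 and 5.92 on day 8, and 5.84 on day 12. In 4F cells it stood at 5.8 and 5.74 on day 1, 5.9 and 5.82 on day 2, 5.98 and 5.84 on day 3, 6.22 and 6.13 on day 4, 6.09 and 6.78 on day 5, 6.28 and 7.35 on day 6, 6.59 and 8.12 on day 8, 8.52 on day 10, and 8.86 on day 12. The arms overlapped on day 1 and were apart on days 3, 5 and 8, and the 4F replicate 2 culture was ahead of replicate 1 by 0.69 on day 5, 1.07 on day 6 and 1.53 on day 8. The difference from GFP was 0.68 ± 0.38 on day 5 (log2 difference ± SE, limma adjusted p = 0.25) and 1.36 ± 0.38 on day 8 (adjusted p = 0.013). The day 8 difference was 0.52 within replicate 1 and 2.2 within replicate 2, and the call rests on the latter: without the 4F day 8 replicate 2 array the difference was 0.59 (adjusted p = 0.21), and without the GFP day 8 replicate 2 array it was 1.28 (adjusted p = 0.067). Against day 0, Cdh1 was 1.1 ± 0.38 higher on day 6 (adjusted p = 0.061, with 0.031 in the replicate block, 0.033 with low genes left out, 0.045 with a variance trend, and 0.018 without 4F day 6 replicate 1) and 1.64 ± 0.38 higher on day 8 (adjusted p = 0.0068, and 0.085 with 0.88 left without 4F day 8 replicate 2). On day 12, with 1 array per arm and no test, 4F exceeded GFP by 3.03, or 8.14-fold. In whole cultures a change in the number of cells of a type and a change in RNA per cell cannot be told apart.

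Other genes of epithelial and pluripotent cells were uneven between the same arrays, with the same limit of replicate and RNA input. The mean signal of 15 epithelial markers, without Cdh1, was 6.31 and 6.53 in 4F cells on day 5, 6.42 and 6.73 on day 6, 6.61 and 7.67 on day 8, 8.33 on day 10 and 8.59 on day 12, against 5.93 to 6.21 on the 9 GFP arrays and 6.23 to 6.33 on day 0. That of 10 pluripotency markers was 6.86 and 7.93 in 4F cells on day 8. On day 8 against GFP, 11 of 15 epithelial and 7 of 10 pluripotency markers were higher and none of either list lower, where 14.5% of all genes were higher and 13% lower. The part of these markers' cells in the Cdh1 difference was not tested.

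Cdh2 (probe set 10457644) encodes the N-cadherin of mesenchymal and neural cells. It stood at 9.42 and 9.83 on day 0, and in GFP cells at 9.1 and 9.48 on day 1, 8.91 and 9.36 on day 3, 8.9 and 9.47 on day 5, 8.79 and 9.23 on day 8, and 8.77 on day 12. In 4F cells it stood at 9.05 and 9.48 on day 1, 8.69 and 8.79 on day 2, 8.64 and 8.95 on day 3, 8.47 and 8.71 on day 4, 8.19 and 8.27 on day 5, 8.17 and 8 on day 6, 7.99 and 7.05 on day 8, 6.73 on day 10, and 6.36 on day 12. The 4F and GFP arrays overlapped on days 1 and 3 and were apart on days 5 and 8, and 4F replicate 2, the higher array up to day 5, was the lower one on days 6 and 8. The difference from GFP was -0.34 ± 0.29 on day 3 (limma adjusted p = 0.52), -0.95 ± 0.29 on day 5 (adjusted p = 0.026) and -1.49 ± 0.29 on day 8 (adjusted p = 0.00096). The day 5 call was lost without 4F day 5 replicate 1 (adjusted p = 0.13), 4F day 5 replicate 2 (0.079) or GFP day 5 replicate 2 (-0.67, adjusted p = 0.23), and in a fit on fewer groups (0.05). On day 8 the difference was -0.8 within replicate 1 and -2.19 within replicate 2, and it passed the threshold without any 1 of the 4 arrays. Against day 0, Cdh2 was lower from day 4 (-1.03 ± 0.29, adjusted p = 0.031) and fell by 2.1 to day 8 (SE 0.29, adjusted p = 0.00013). The day 4 call was lost without any 1 of its 4 arrays (adjusted p from 0.055 to 0.23) and with fewer groups (0.051), and that of day 5 (-1.39, 0.0038) without day 0 replicate 2 (0.051). The day 2 value of -0.89 (adjusted p = 0.07) was called with the replicate block (0.035) and with low genes left out (0.039). The GFP value against day 0 was -0.61 on day 8, which did not pass (adjusted p = 0.17). Of 10 neural markers 2 were higher and none lower in 4F cells on day 8, where 14.5% of all genes were higher and 13% lower.

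**Figure D2:**
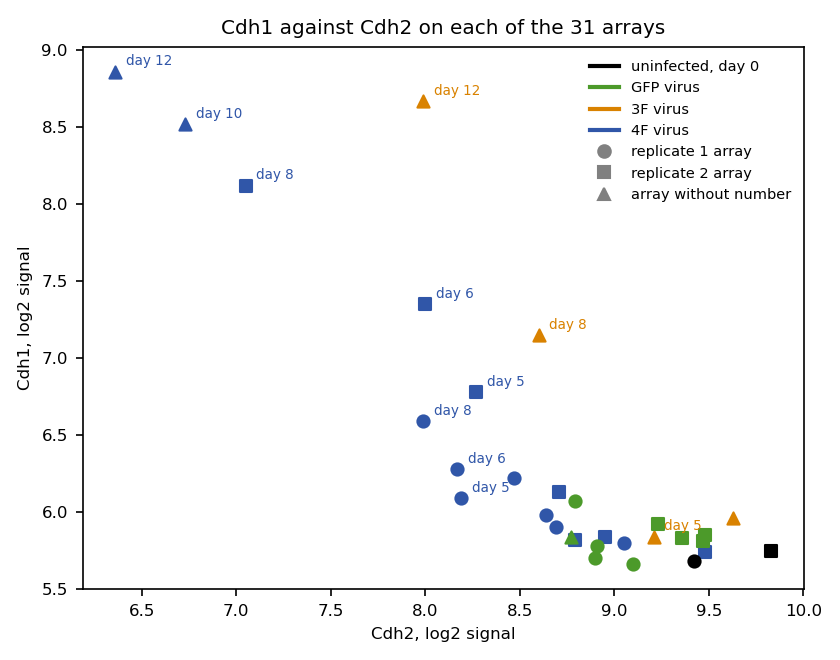
Cdh1 (vertical axis) against Cdh2 (horizontal axis), both in log2 signal, with 1 point per array coloured by arm. The 4F arrays of days 8 (replicate 2), 10 and 12 lie at upper left, with Cdh1 from 8.12 to 8.86 and Cdh2 from 6.36 to 7.05, and the 3F day 12 array lies at a Cdh1 of 8.67 with Cdh2 at 7.99.

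The timing of the switch was read from the 4F group means relative to day 0, as a description with no test. Cdh1 and Cdh2 each passed 50% of their largest change on day 8, and both had their largest change on day 12, at 3.15 and -3.26. For Cdh1 this rests on replicate 2, which was 2.41 above day 0 on day 8 while replicate 1 was 0.88 above it, and for Cdh2 the same arrays were at -2.58 and -1.63. On day 6, before either passed 50%, Cdh2 was at -1.53 and Cdh1 at 1.1. The day 12 changes come from a single array without replicate number, while those up to day 8 come from numbered arrays. Cdh11 passed 50% on day 5, Cdh3 on day 2 and Cdh6 on day 4, the last through replicate 2 (-0.87, against -0.33 in replicate 1). Over the 9 4F days the group means of Cdh1 and Cdh2 had a Pearson r of -0.99, and over all 19 groups r was -0.89, with arrays, culture and time shared by both genes. On the 2 arrays of 4F day 8 the 1 with more Cdh1 (8.12 against 6.59) was the 1 with less Cdh2 (7.05 against 7.99).

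Cdh11 (probe set 10581013) encodes the cadherin of mesenchymal cells and osteoblasts. It stood at 11.14 and 11.38 on day 0, and in GFP cells at 11.26 and 11.32 on day 1, 11.42 and 11.68 on day 3, 11.71 and 11.89 on day 5, 11.95 and 11.98 on day 8, and 12.15 on day 12. In 4F cells it stood at 10.79 and 11.26 on day 1, 9.97 and 10.52 on day 2, 10.05 and 10.44 on day 3, 9.74 and 9.9 on day 4, 9.12 and 9.64 on day 5, 8.99 and 9.39 on day 6, 8.9 and 8.55 on day 8, 8.24 on day 10, and 8.08 on day 12. On day 1 the upper 4F array and the lower GFP array were both at 11.26 after rounding, without overlap. The arms were further apart on every later shared day. The difference from GFP was -0.27 ± 0.23 on day 1 (limma adjusted p = 0.75), -1.31 ± 0.23 on day 3 (adjusted p = 0.0015), -2.42 ± 0.23 on day 5 (adjusted p = 5.3e-06) and -3.24 ± 0.23 on day 8 (adjusted p = 1.8e-07). Within the replicates the day 8 difference was -3.05 and -3.43, and on day 12 the single arrays differed by -4.08, or 16.9-fold.

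Part of the Cdh11 difference lay in the GFP arm. Against day 0, 4F cells were lower on day 2 (-1.01 ± 0.23, adjusted p = 0.0096) and on day 8 (-2.53 ± 0.23, adjusted p = 3.8e-06), while GFP cells were 0.71 ± 0.23 higher on day 8 (adjusted p = 0.038). The GFP call was lost without any 1 of its 4 arrays (adjusted p from 0.068 to 0.22), and with the replicate block GFP cells were also called on day 5 (0.54, adjusted p = 0.036). The day 2 call was lost without day 0 replicate 2 (-0.89, adjusted p = 0.092) or 4F day 2 replicate 1 (-0.73, adjusted p = 0.14), and that of day 3 (-1.02, adjusted p = 0.01) without day 0 replicate 2 (0.086) or 4F day 3 replicate 1 (-0.82, adjusted p = 0.13). The mean of 10 fibroblast markers was 10.24 to 10.37 on day 0, 12.2 on the GFP day 12 array and 9.41 to 10.53 on the 16 4F arrays. It did not follow Cdh11 in every arm. On the 4F day 12 array the marker mean was 9.78, while Cdh11 stood at -3.18 from day 0. On the 3F arrays the marker mean was 10.45 to 11.11, above day 0, while Cdh11 reached 10.36 on day 12. Among the markers, Lum was higher in 4F cells (6.46 to 9.62) than on day 0 (5.72 to 5.82). On day 8, 9 of these 10 were lower in 4F than in GFP and none higher (13% and 14.5% of all genes), and their part in the Cdh11 difference was not tested.

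Cdh3 (probe set 10575034) encodes P-cadherin, known from placenta and the basal layer of stratified epithelia. It stood at 7.34 and 7.94 on day 0, and in GFP cells at 8.45 and 8.03 on day 1, 8.18 and 8.38 on day 3, 7.75 and 8.44 on day 5, 7.6 and 8.55 on day 8, and 8.2 on day 12. In 4F cells it stood at 7.04 and 7.06 on day 1, 6.06 and 6.13 on day 2, 6.1 and 5.88 on day 3, 6.13 and 6.08 on day 4, 5.84 and 6 on day 5, 5.84 and 5.78 on day 6, 6.17 and 5.99 on day 8, 6.45 on day 10, and 6.93 on day 12. All 4F arrays lay below all GFP arrays, and the single arrays of days 10 and 12 were above both of day 8. Those single arrays have no replicate number, so day and array set cannot be told apart in this rise. The difference from GFP was -1.19 ± 0.27 on day 1 (limma adjusted p = 0.038), -2.28 ± 0.27 on day 3 (adjusted p = 7.7e-05), -2.18 ± 0.27 on day 5 and -2 ± 0.27 on day 8 (both adjusted p = 5.1e-05). The day 1 call was lost without any 1 of the 4 arrays (-0.98 to -1.4, adjusted p from 0.052 to 0.41), with median centring (0.05) and with fewer groups (0.08), and the later ones were not. Against day 0, 4F cells were lower on day 2 (-1.55 ± 0.27, adjusted p = 0.0019), and GFP cells were 0.44 higher on day 8 (adjusted p = 0.33, and 0.031 with 0.91 left without GFP day 8 replicate 1).

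Cdh3 and Cdh1, both cadherins of epithelia, thus moved in opposite directions by day 8. Their genes are neighbours, with 0 protein-coding genes between them in the RefSeq annotation of GRCm38.p6. Their group means had an r of -0.34 over the 19 groups and of 0.34 over the 9 4F days. Keratinocyte markers, 11 genes, had a mean signal of 5.4 to 5.61 on the GFP arrays and 5.42 to 5.85 on the 4F arrays. None was called on day 8, where 27.6% of all genes were.

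Cdh6 (probe set 10427862) encodes K-cadherin, known from kidney and neural crest. It stood at 7.15 and 6.78 on day 0, and in GFP cells at 6.18 and 6.55 on day 1, 6.16 and 6.22 on day 3, 6.32 and 6.09 on day 5, 6.34 and 6.31 on day 8, and 6.4 on day 12. In 4F cells it stood at 7.14 and 7.11 on day 1, 6.49 and 6.76 on day 2, 6.83 and 6.76 on day 3, 6.64 and 6.09 on day 4, 6.06 and 6.09 on day 5, 6.18 and 6.05 on day 6, 6.2 and 6.07 on day 8, 6.07 on day 10, and 6.03 on day 12. On day 1 both GFP arrays were below both day 0 arrays and both 4F arrays. The difference between the arms was 0.76 ± 0.17 on day 1 (limma adjusted p = 0.031), 0.6 ± 0.17 on day 3 (adjusted p = 0.027) and -0.19 ± 0.17 on day 8 (adjusted p = 0.47). The day 1 call was lost without 4F day 1 replicate 1 (0.24), 4F day 1 replicate 2 (0.15) or GFP day 1 replicate 1 (0.4), and that of day 3 without any 1 of its arrays (adjusted p from 0.066 to 0.15). Against day 0, GFP cells were lower on day 3 (-0.78 ± 0.17, adjusted p = 0.037) and 4F cells on day 5 (-0.89 ± 0.17, adjusted p = 0.0018). The GFP calls of days 3, 5 and 8 were lost without day 0 replicate 1, at adjusted p = 0.37, 0.12 and 0.14, and also without GFP day 3 replicate 1 (0.32) or 2 (0.056), GFP day 5 replicate 2 (0.087), and GFP day 8 replicate 1 (0.051) or 2 (0.05). The 4F call of day 4 (-0.6, adjusted p = 0.03) was lost without day 0 replicate 1 (-0.42, 0.29) or 4F day 4 replicate 2 (-0.33, 0.33).

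Cdh13 (probe set 10575844), the tailless member, stood at 7.14 and 7.42 on day 0. In GFP cells it stood at 7.32 and 7.62 on day 1, 7.53 and 7.86 on day 3, 7.13 and 7.22 on day 5, 7.3 and 6.98 on day 8, and 7.62 on day 12. In 4F cells it stood at 7.54 and 7.7 on day 1, 7.59 and 8.19 on day 2, 7.51 and 8.09 on day 3, 7.46 and 7.8 on day 4, 7.1 and 7.46 on day 5, 6.82 and 7.2 on day 6, 6.57 and 7.07 on day 8, 7.92 on day 10, and 8.41 on day 12. The arms overlapped on each of days 1, 3, 5 and 8, and no difference from GFP passed (-0.32 ± 0.25 on day 8, limma adjusted p = 0.41). Against day 0, the 4F values of 0.61 on day 2 (adjusted p = 0.17) and 0.52 on day 3 (0.26) were called with the replicate block (0.019 and 0.046). The 4F arrays of days 10 and 12 were above both of day 8, and they belong to the arrays without number.

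Cdh4 (probe set 10479274), the retinal cadherin, ranged from 5.85 to 6.41 over the 31 arrays with a median of 6.1. No comparison called it. Its largest difference from GFP among the 4 days was -0.17 ± 0.13 on day 1 and again on day 8 (limma adjusted p = 0.71 and 0.39). Its mean lay under the median of all genes, and detection calls were not used here, so a signal above background was not measured. The same limit holds for low values of other members, since the column medians were 6.04 to 6.17. Cdh1 stood at 5.66 to 6.07 on the day 0 and GFP arrays. Cdh3 was at 5.78 to 6.17 in 4F cells from day 2 to day 8, and Cdh6 at 6.03 to 6.2 from day 5. How far background bounds their differences was not tested.

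**Figure D3:**
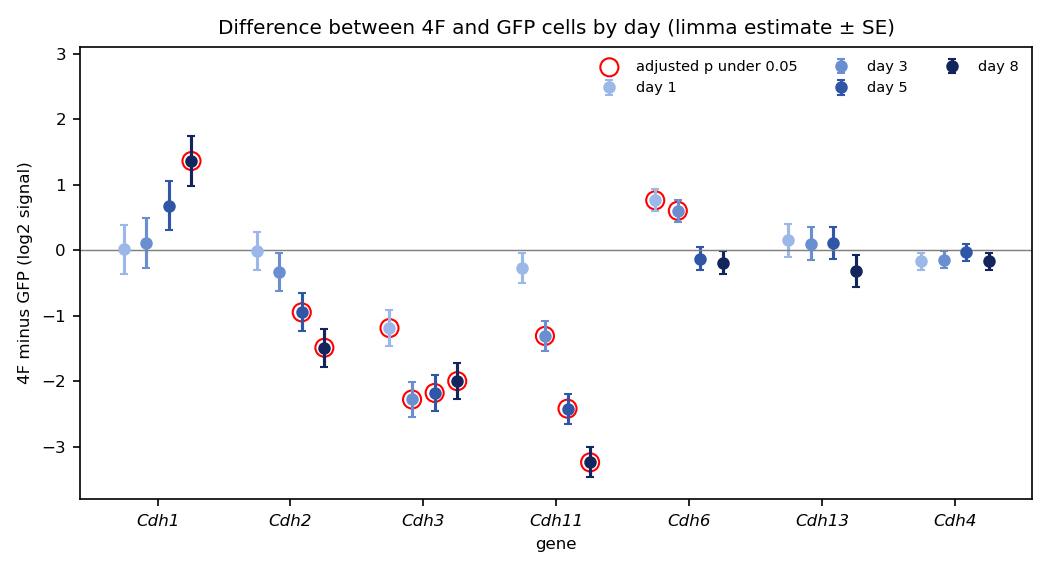
Difference between 4F and GFP cells in log2 signal (vertical axis, limma estimate ± SE, 2 arrays per group) for each cadherin on days 1, 3, 5 and 8, with red rings where the adjusted p was under 0.05. Cdh11 runs from -0.27 to -3.24 and Cdh2 from -0.02 to -1.49, while Cdh3 is at -2.28 by day 3 and Cdh6 starts at 0.76 and ends at -0.19.

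Whether these differences had themselves changed between day 1 and day 8 was tested directly. Cdh11 moved by -2.97 ± 0.32 (limma adjusted p = 7.5e-05), Cdh2 by -1.47 ± 0.4 (adjusted p = 0.035) and Cdh6 by -0.95 ± 0.23 (adjusted p = 0.019), so 3 of 7 members were called where 8.49% of all genes were (14.1% with the replicate block). Cdh1 moved by 1.34 ± 0.53 (adjusted p = 0.16, and 0.0053 with 2.11 when 4F day 8 replicate 1 was left out). Cdh3 moved by -0.81 ± 0.38 (adjusted p = 0.26, and 0.035 with -1.28 when GFP day 8 replicate 1 was left out). The Cdh2 call was lost without 4F day 1 replicate 2 (-1.25, 0.16), 4F day 8 replicate 2 (-1, 0.13), GFP day 1 replicate 1 (-1.28, 0.14) or GFP day 8 replicate 2 (-1.25, 0.12), and with fewer groups (0.069). That of Cdh6 was lost without 4F day 1 replicate 1 (0.059), 4F day 1 replicate 2 (0.061), 4F day 8 replicate 2 (0.06), GFP day 1 replicate 1 (0.094) or GFP day 8 replicate 1 (0.054).

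Set against uninfected cells, Cdh3 and Cdh11 were called lower in 4F from day 2, Cdh2 and Cdh6 from day 4, and Cdh1 was called higher on day 8. The order between genes was not tested, and on day 2 Cdh2 (-0.89 ± 0.29) lay close to Cdh11 (-1.01 ± 0.23). The members called numbered 0 on day 1, 2 on day 2, 2 on day 3, 4 on days 4, 5 and 6, and 5 on day 8. The share of all genes called was 0.838% on day 1, 9.35% on day 2, 8.53% on day 3, 10.1% on day 4, 13.6% on day 5, 16.1% on day 6 and 15.9% on day 8, and with the replicate block 1.85%, 14.4%, 13.7% and 15.5% on days 1 to 4. On day 1, 1 member, Cdh3, had an unadjusted p under 0.05. With the block the members called on day 2 numbered 4. In GFP cells Cdh6 was the member called on days 3 and 5, and Cdh6 and Cdh11 were on day 8, against 1.05%, 10.6% and 20.1% of all genes (2.97% and 17.3% on days 3 and 5 with the block). On day 1 of GFP no member passed in limma, with 2 at an unadjusted p under 0.05, where 0.0903% of all genes were called (0.717% with the block). These comparisons share the 2 day 0 arrays.

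No member was called in the steps between days 1, 3, 5 and 8. In 4F cells 0 members passed from day 1 to day 3, from day 3 to day 5 and from day 5 to day 8 in limma, with 2, 2 and 3 at an unadjusted p under 0.05, and 2.54%, 0.0301% and 0.206% of all genes called (5.29%, 0.196% and 0.552% with the block). With the replicate block Cdh3 (-1.06, adjusted p = 0.028, against 0.054 without it) and Cdh11 (-0.78, adjusted p = 0.013, against 0.095) were called from day 1 to day 3. Cdh1 from day 5 to day 8 was at 0.92 (adjusted p = 0.59), and at 1.69 (0.015) without 4F day 8 replicate 1. In GFP cells 0 members passed in limma and 0 had an unadjusted p under 0.05 in the same 3 steps, where 0.321%, 0.181% and 1.67% of all genes were called (0.777%, 1.15% and 4.44% with the block).

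The 3F arm shows the cadherins without delivered c-Myc. Cdh1 was at 5.96, 5.84, 7.15 and 8.67 on days 3, 5, 8 and 12, within 0.59 of the 4F mean on each day. Cdh2 was at 9.63, 9.21, 8.6 and 7.99, and Cdh11 at 11.29, 10.87, 10.66 and 10.36, both above 4F on every day. Cdh3, at 6.43, 6.05, 6.04 and 6.46, was below every GFP array. Cdh13 was at 9.16, 8.73, 8.61 and 8.08, above every day 0 and GFP array, and above 4F on days 3, 5 and 8 but not on day 12. Cdh6 was at 7.1, 6.51, 6.67 and 6.15. On day 12, 3F thus had as much Cdh1 as 4F to within 0.19 while its Cdh2 was 1.63 and its Cdh11 2.28 higher.

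**Figure D4:**
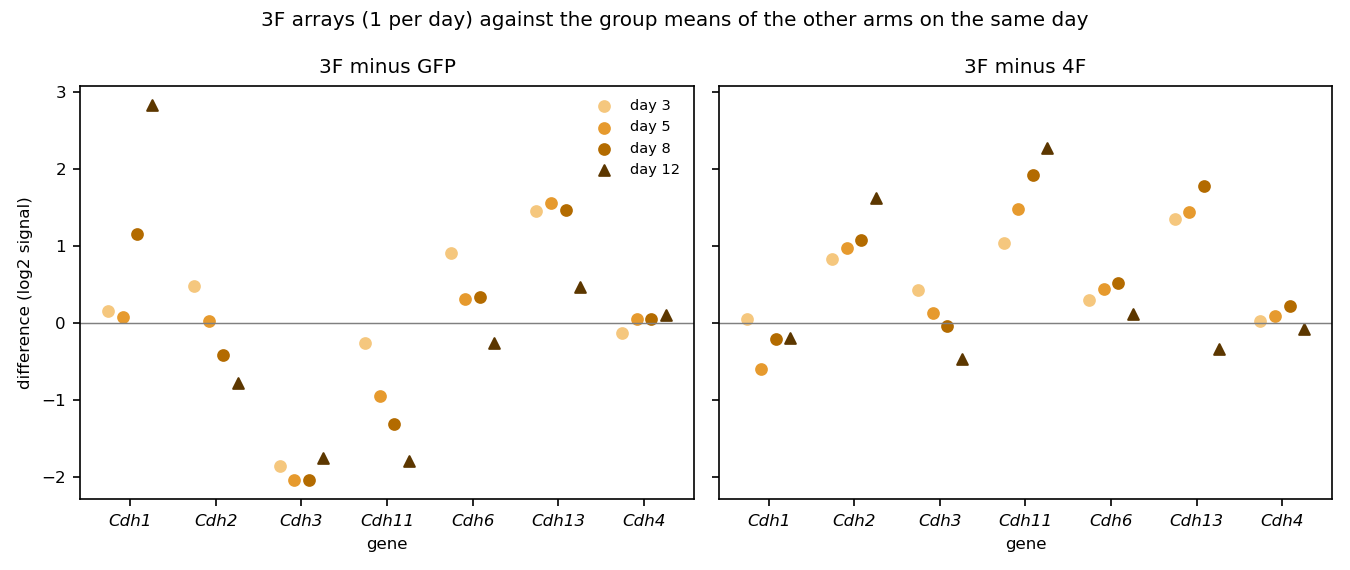
Difference in log2 signal (vertical axis) between the 3F array of each day and the mean of GFP (left panel) or 4F (right panel) on that day, for 7 cadherins. Cdh11 minus 4F runs from 1.05 on day 3 to 2.28 on day 12, and Cdh13 minus 4F from 1.36 to -0.33, where triangles mark day 12.

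Over days 3 to 12, in a limma model of day and arm, 3F differed from GFP in Cdh3 (-1.96 ± 0.19, adjusted p = 6.7e-06), Cdh13 (1.24 ± 0.24, adjusted p = 0.0021) and Cdh11 (-0.98 ± 0.32, adjusted p = 0.044), 3 of 7 members where 18.3% of all genes were called. It differed from 4F in Cdh11 (1.6 ± 0.32, adjusted p = 0.0083), Cdh13 (1.16 ± 0.24, adjusted p = 0.0098) and Cdh2 (1.05 ± 0.27, adjusted p = 0.025), 3 of 7 where 9.63% were. Cdh1 was -0.15 ± 0.39 from 4F (adjusted p = 0.91) and 0.9 ± 0.39 from GFP (adjusted p = 0.14), and Cdh3 was 0.07 ± 0.19 from 4F (adjusted p = 0.91), and neither shows equal levels. None of the 4 3F arrays has a replicate number, so arm and array set cannot be told apart except on day 12, when the 4F and GFP arrays have none either. With the set as a block, 3F is tied to the other arms through day 12 only. The fit still shares 1 difference between 4F and GFP over days 3 to 12. Its estimates are thus not the day 12 differences from GFP, which were -1.75 for Cdh3, -1.79 for Cdh11 and 0.47 for Cdh13. In this fit the call against GFP remained for Cdh3 (-2.12 ± 0.36, adjusted p = 0.0032). It was lost for Cdh11 (-1.04 ± 0.66, 0.37) and Cdh13 (0.11 ± 0.31, 0.89). Against 4F the call was lost for Cdh2 (1 ± 0.56, 0.73), Cdh11 (1.53 ± 0.66, 0.56) and Cdh13 (0.03 ± 0.31, 1), where 0.0702% of all genes were called.

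Single 3F arrays decided some of these calls too. Cdh2 against 4F was lost without the array of day 3 (0.99, adjusted p = 0.093), day 5 (1.05, 0.097) or day 8 (1.11, 0.073), and Cdh13 without that of day 5 (1.05, 0.063) or day 8 (1.01, 0.06). Cdh11 against GFP was lost without the GFP day 12 array (-0.73, 0.12) and in 11 other fits that left out 1 array. Cdh6 against GFP, at 0.37 ± 0.14 (adjusted p = 0.09), was called without the GFP day 12 array (0.48, 0.028) or the 3F day 12 array (0.49, 0.044). Fibroblast markers had a mean of 10.45 to 11.11 on the 3F arrays, and 8 of 10 were higher than in 4F, where 5.77% of all genes were higher (0.0702% were called in either direction with the block). Their part in the Cdh2, Cdh11 and Cdh13 differences was not tested.

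The proteins that link cadherins to the cytoskeleton were followed from a list. Of 21 catenins and adherens junction genes, 6 were higher and 1 lower in 4F than in GFP cells on day 8, with a list median of 0.08, where 14.5% of all genes were higher and 13% lower. Jup, the plakoglobin that can replace beta-catenin at the tail, was at 0.78 ± 0.19 (limma adjusted p = 0.0051), the p120 relative Pkp4 at 1.21 ± 0.2 (adjusted p = 0.00029) and Afdn, which joins nectins to actin, at 0.72 (adjusted p = 0.018). Plekha7, Magi1 and Shroom3 were higher by 0.61, 0.57 and 0.48, and the nectin gene Nectin2 was lower (-1.3 ± 0.17, adjusted p = 4e-05). The core tail partners were not called, with Ctnnb1 (beta-catenin) at 0 ± 0.12, Ctnna1 (alpha-catenin) at 0.08 ± 0.11 and Ctnnd1 (p120) at -0.25 ± 0.22. On day 1, Pkp4 (0.92 ± 0.2, adjusted p = 0.031) and Nectin2 (-0.81 ± 0.17, adjusted p = 0.028) were already called. Against 4F, 3F cells had more Ctnna1 (0.43), Ctnna2 (0.45), the neural p120 relative Ctnnd2 (0.96 ± 0.18, adjusted p = 0.0056) and Nectin3 (0.42), 4 of 21 higher and 0 lower, where 5.77% of all genes were higher and 3.87% lower.

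Of 13 factors known as Cdh1 repressors or mesenchymal drivers, 8 were lower and 2 higher in 4F cells on day 8 (13% and 14.5% of all genes), with a list median of -0.92. Snai1 (-1.82 ± 0.21, limma adjusted p = 1.3e-05), Snai2 (-1.82), Zeb1 (-1.6), Zeb2 (-0.92), Twist1 (-0.91), Twist2 (-1.82), Foxc2 (-0.95) and Prrx1 (-1.64) were lower. Tcf3 (0.87 ± 0.28, adjusted p = 0.031) and Klf8 (1.27 ± 0.11, adjusted p = 8.9e-07), both known to repress Cdh1, were higher. On day 1, when Cdh1 differed by 0.01 ± 0.38, Snai1 was lower (-0.94 ± 0.21, adjusted p = 0.036) and Klf8 higher (0.52 ± 0.11, adjusted p = 0.027). In 3F cells Zeb2 (0.9) and Twist2 (0.6) were above 4F and Klf8 below it (-0.41).

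Of 13 epithelial transcription and splicing factors 7 were higher and 1 lower on day 8 (14.5% and 13% of all genes), with a list median of 0.48, and none was called on day 1 in limma. Elf3 (1.22 ± 0.17, adjusted p = 6.6e-05), Tfap2c (1.04 ± 0.16, adjusted p = 2e-04), the splicing regulators Esrp1 (0.92) and Esrp2 (0.48), Grhl1 (0.65), Grhl3 (0.76) and Tfap2a (0.51) were higher, and Klf4, which the virus also delivered, was lower (-0.92). In 3F cells Klf4 (0.7) and Tfap2a (0.69) were above 4F.

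Of 14 measured genes for proteases that cut cadherins or activate those that do, 9 were lower and 0 higher on day 8 (13% and 14.5% of all genes), with a list median of -0.62. They were the stromelysin Mmp3 (-4.55 ± 0.71, limma adjusted p = 0.00017), the membrane protease Mmp14 (-2.37 ± 0.25), the sheddases Adam9 (-2.31), Adam10 (-0.64), Adam15 (-0.31) and Adam17 (-1.04), the gamma-secretase genes Psen2 (-0.61) and Ncstn (-0.72), and the proprotein convertase Furin (-0.88). In GFP cells 7 of the 14 were above day 0 on day 8. Of all genes 20.1% were called in either direction there, and the share called higher alone is not given here. In 3F cells Adam9 (1.23), Mmp14 (1.08), Psen2 (0.54), Ncstn (0.47) and Furin (0.49) were above 4F.

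Among 15 other cadherins 3 were higher and 2 lower on day 8, with a list median of -0.09, which is near the share over all genes (14.5% higher and 13% lower). The type II cadherins Cdh7 (1.73 ± 0.46, limma adjusted p = 0.0096), Cdh10 (1.35 ± 0.26, adjusted p = 0.0011) and Cdh20 (0.83 ± 0.19, adjusted p = 0.003) were higher, and Cdh8 (-0.84) and Cdh18 (-1.06) lower. Cdh10, a cadherin of the nervous system, was called on day 1 (1.13 ± 0.26, adjusted p = 0.041), and in 3F cells it was 2.35 ± 0.22 above GFP (adjusted p = 4.8e-06) and 0.91 ± 0.22 above 4F (adjusted p = 0.019). Cdh26 was also above 4F in 3F cells, by 0.27 (adjusted p = 0.027). All-gene medians were between -0.03 and -0.01 in these comparisons. The called differences of the 5 lists between 3F and 4F carry the same limit of array set as those of the members.

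The order of group levels differed between the members. For Cdh1, 16 of the 18 neighbouring steps in the order of 19 group means were within the residual SD of 0.38, and the largest step was 1.17, from 4F day 8 to 4F day 10. For Cdh2, 13 of 18 were within 0.29 and the largest was 0.79, from 4F day 10 to 4F day 8. Both of these largest steps lie between the numbered arrays of day 8 and the single array of day 10 without number. In them day and array set cannot be told apart. The day 8 arrays themselves were at 6.59 and 8.12 for Cdh1 and at 7.99 and 7.05 for Cdh2. Cdh3 ran from 5.81 in 4F day 6 to 8.28 in GFP day 3, with 14 of 18 steps within 0.27. Its largest step was 0.59, from 4F day 1 at 7.05 to day 0 at 7.64. Steps of 0.47 (3F day 12 to 4F day 12) and 0.44 (day 0 to GFP day 8) were not much smaller. Cdh11 ran from 8.08 in 4F day 12 to 12.15 in GFP day 12, with 10 of 18 steps within 0.23. Of the others, 17 steps of Cdh6, 16 of Cdh13 and all 18 of Cdh4 were within the residual SD.

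The genes whose 19 group means were most like those of each member were found over all genes, as a description, since all share the same arrays. Cdh1 was most like Epcam (Pearson r = 0.992), an epithelial adhesion gene whose means were 5.53 on day 0, 5.38 to 5.55 in GFP, 8.17 in 4F on day 8, 9.89 on day 12, and 7.32 and 9.8 in 3F on days 8 and 12. Next to it came Smagp (0.986) and Clec2g (0.984). Cdh2 was most like Epb41l3 (0.984), Slc39a6 (0.969) and Rexo2 (0.961), and Cdh11 like Nsg1 (0.972), the ligand gene Wnt5a (0.971) and Dnajc3 (0.971). Cdh3 was most like the VEGF receptor gene Flt1 (0.965), P4ha2 (0.956) and Fam160a1 (0.956), and Cdh13 like the syndecan gene Sdc2 (0.921), Cryab (0.91) and Tmbim1 (0.906). The values were lower for Cdh6, with Map2k4 at 0.852, and for Cdh4, with Csdc2 at 0.874.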

How the data were processed

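The deposited table holds log2 signals of 31 Affymetrix arrays, per the file headers 1 column per array, with values from 4.27 to 14.3 and column medians from 6.04 to 6.17. No normalization method is given in the sources used here, and the values were analysed as deposited by the authors. Of 28853 rows, 21789 carry 1 gene symbol, giving 19938 genes; of several rows of a gene (999 genes) the one with the highest mean was used. Another 3 rows that name Cdh11 with other symbols were left out. Coordinates are left out for want of a named build. Samples without virus titled 4F day 0 served as day 0, and samples titled 3F were taken as such, although their source text counts 4 factors while listing Oct4, Sox2 and Klf4.

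Groups were compared with limma 3.58.1 (R 4.3.3) in a model of 19 group means (12 residual degrees of freedom), and 3F in a model of day and arm over 18 arrays of days 3, 5, 8 and 12 (12 residual degrees of freedom). Benjamini-Hochberg adjusted p-values over all genes were called under 0.05. Replicates are biological per their titles. These models did not include the replicate number, so the main tests were unpaired. Samples of equal replicate number were paired only in the alternative fit with the replicate block. The labels tie replicate 1 to a labelling amount. In 66 pairs of groups the correlation of replicate differences was 0.081 to 0.69, and 65 exceeded 0.1. The number of arrays limits the precision. Named genes are the 7 members, the delivered factors, the called members of 5 lists on days 1 and 8 and in 3F, and the 3 genes most like each member. Members and lists were chosen with earlier results of these data known. Alternatives were quantile normalization, median centring, a filter on low genes, row means, a variance trend, fewer groups, the block, and leaving out each array.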

Additional observations from a re-analysis of the deposited data

Results flagged for a closer look

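For 3 cadherins the 4F against GFP difference on day 8 was not the difference on day 1, by a direct test of the change in limma. Cdh2 went from -0.02 to -1.49, a change of -1.47 ± 0.4 (adjusted p = 0.035). Cdh6 went from 0.76 to -0.19, a change of -0.95 ± 0.23 (adjusted p = 0.019). Cdh11 went from -0.27 to -3.24, a change of -2.97 ± 0.32 (adjusted p = 7.5e-05). The call held for Cdh11 without any 1 of the 8 arrays, while those of Cdh2 and Cdh6 were lost in several of these fits, and their cause was not tested. No group had enough arrays to test for a single array apart from the others.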

How the results depend on the processing

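Of 711 alternative values for the 51 called member results, 622 kept direction and call, 89 lost the call and 0 reversed, and of 1483 alternatives for 124 uncalled results 20 gained one. The number of members called against GFP on day 1 was 1, not 2, with median centring and with fewer groups in the fit. From 4F day 1 to day 3 it was 1, not 0, with the low filter, which keeps 6 members and drops Cdh4, and with a variance trend. With the replicate block it was 2 for that step, 4 for 4F day 2 against day 0 (2 without), 2 for GFP day 5 (1 without), 1 for 3F against GFP (3 without) and 0 for 3F against 4F (3 without). Beyond these and the block results given with each gene, the block changed no other call of a member.

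Leaving out 1 array gave, for 4F against GFP, 0 to 1 members on day 1, 2 on day 3, 2 to 3 on day 5, 3 to 4 on day 8, 3 to 6 in the mean and 1 to 4 for day 8 minus day 1. For 4F against day 0 it gave 0 on day 1, 1 to 2 on days 2 and 3, 2 to 3 on day 4, 3 to 4 on day 5 and 4 to 5 on days 6 and 8. For GFP it gave 0 on day 1 and 0 to 1 on days 3, 5 and 8, for the steps 0 except 0 to 1 from 4F day 5 to day 8, for 3F against GFP 2 to 3, and for 3F against 4F 1 to 3. Cdh1 in the mean over days (0.54 ± 0.19, adjusted p = 0.035) was lost in 11 of 16 such fits (0.35 to 0.55), and Cdh6 there (0.26, 0.021) in 2. Where an arm was left with 1 array, that array was assumed to vary like the other groups. The smallest difference that 1 or 2 arrays per group can show was not tested. The cause of each lost call was not tested.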
